A study of Mus musculus with 3 samples.

Results

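Stretches of the mouse genome on which immunoprecipitated, methylated DNA was enriched at nearly every probe numbered 714 of 23966 eligible tiled regions (2.98%). A tiled region is a run of array probes with starts no more than 500 bp apart, and a region was eligible with at least 8 probes on chromosomes 1 to 19. It counted as wholly enriched where at least 90% of its probes passed. A probe passed with a mean log2 ratio of bound over input DNA above 0.5 over the 3 arrays and bound signal well above background on at least 1 array. Each array's median probe was set to 0. The levels of these regions therefore chose them and are given as a description. Another 3633 eligible regions had 50% to under 90% of their probes passing, and 19619 had under 50%. Enrichment here is relative to the array median. The commonest ratio, the mode, lay 0.71, 0.81 and 0.63 above that median on arrays 1, 2 and 3. A passing probe can thus lie below the mode, and with the mode as zero 122 regions met the rule.

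The study mapped methylated DNA in frontal cortex of naive male C57BL/6 mice aged 2 months, and its title concerns methylation at transcription start sites and the start of transcription. All 3 arrays belong to 1 group, and each compares the captured with the input DNA of a pool of 3 mice. Methylated DNA immunoprecipitation (MeDIP) was done with an antibody against 5-methylcytosine, which per the labels leaves hydroxymethylated DNA aside. Input DNA carried Cy3 and captured DNA Cy5 on every array, after amplification of both, so dye, amplification and enrichment cannot be told apart. The pools hold DNA of all cell types of the tissue. Titles number the arrays 1 to 3, while every sample description gives replicate 1, so the spread between arrays is read as that between pools only on the titles' word.

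As background, 5-methylcytosine in mammalian DNA lies mainly at CG dinucleotides, most of which are methylated in somatic tissue. CpG islands, the CG-dense stretches at many promoters, are mostly unmethylated, and a methylated island is typical of silenced germline genes, imprinted alleles and the inactive X chromosome. MeDIP recovers a fragment the more readily the more methylated CGs it carries, so a high ratio needs both CG density and methylation and is not a methylation percentage. The files place probes by position on mouse build mm9 and give no gene names. Gene annotation and probe sequences of that build were not used here, and the regions are named by position.

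The 3 arrays differed in how much bound DNA they detected. Bound signal was well above background at 66.0% of all probes on array 1, 47.4% on array 2 and 51.1% on array 3. Among the 10008 probes of the wholly enriched regions these shares were 98.4%, 91.2% and 90.6%. Input signal was above background at 97.1%, 88.3% and 87.8% of the same probes. Bound signal was saturated at none of these probes on any array. The number of arrays limits the precision of every value.

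The wholly enriched regions had mean log2 ratios of 1.81 on array 1, 1.68 on array 2 and 1.45 on array 3. Their mean was 1.65 ± 0.18 (SD, n = 3), a 3.13-fold excess over the array median, against -0.08 ± 0.02 for all eligible regions. Array 1 gave the highest value in 502 of the 714 regions and array 3 the lowest in 613. Region means ran from 0.76 to 3.41, with a median of 1.59 and quartiles of 1.34 and 1.89. The ratio exceeded 0.5 on each array in 713 regions and exceeded 1 on each array in 601. Over the 714 regions the arrays correlated with r of 0.87 to 0.90, values that share the design and the common probes. All 714 were called higher than the array median (limma, adjusted p under 0.05), where 28.0% of the 28880 tiled regions of at least 3 probes and 26.5% of the eligible ones were called. The rule used those values, so nothing is read from that count.

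A high mean and enrichment along the whole length were related but distinct. Of 157 eligible regions with a mean of at least 2, 137 were wholly enriched, and of 1888 with a mean of at least 1, 688 were. Conversely, 139 regions that missed the probe share had means at or above the median of the wholly enriched regions. The regions of the latter kind thus held high probes beside probes that failed.

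**Figure D1:**
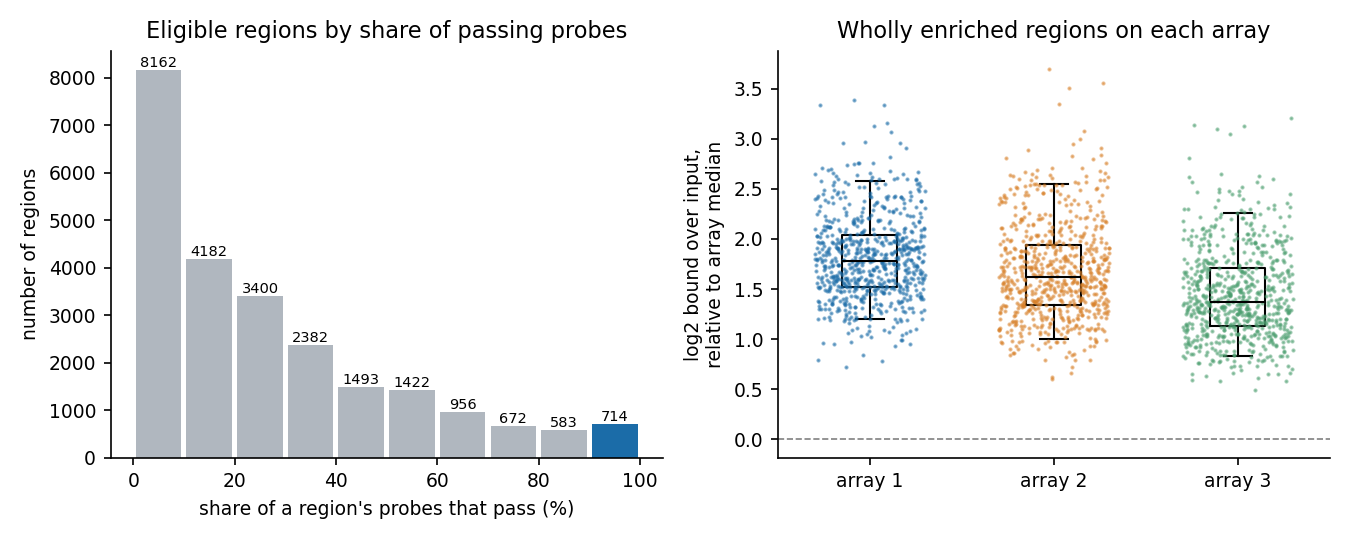
Left, the number of eligible regions by the share of their probes that pass, in classes of 10 percentage points, with the 714 wholly enriched regions in blue. Right, the mean log2 ratio of each wholly enriched region on each array, with box plots of the median, the quartiles and the 5th and 95th percentiles. The regions thin out from 8162 with under 10% of probes passing to 583 at 80% to under 90%, and array 1 lies above array 3.

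The most strongly enriched region lay on chromosome 6 from 29100834 to 29101896 (1063 bp, 12 probes). It had log2 ratios of 3.34 on array 1, 3.69 on array 2 and 3.21 on array 3, a mean of 3.41 ± 0.25 (SD, n = 3). Every probe passed, the lowest at 2.14 and the highest at 3.82. Its profile was a plateau that fell off at both ends, from 3.72 within 200 bp of the midpoint to 2.37 at its edges, more than 500 bp away. A second region of chromosome 6, from 76447612 to 76448468, had 3.38, 3.51 and 3.10 on the 3 arrays. On chromosome 2 the region from 172944807 to 172946222 had 3.16, 3.55 and 3.14. The remaining members with means of at least 3 were both on chromosome 9, from 43909304 to 43910140 with a mean of 3.15 ± 0.17 and from 120023127 to 120024159 with a mean of 3.05 ± 0.14 (SD, n = 3 each). These 5 regions were between 837 and 1416 bp long, all probes passed in each, and array 3 was the lowest in 4 of them.

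At the weak end, the region on chromosome 19 from 42682806 to 42683507 had 0.95, 0.85 and 0.50 on the 3 arrays, a mean of 0.76 ± 0.24 (SD, n = 3), with 9 of 10 probes passing. The region on chromosome 11 from 96844100 to 96845436 had 0.73, 0.82 and 0.77, and 11 of its 12 probes passed. These 2 regions have means close to the threshold for a single probe and met the rule because their probes varied little, with SDs over probes of 0.29 and 0.24. The next lowest lay on chromosome 7 from 148153514 to 148154244 (mean 0.84), chromosome 12 from 106439826 to 106440827 (0.84) and chromosome 6 from 112337795 to 112338700 (0.85). The last of these held 1 probe at -0.52, far below its other probes. In all, 26 regions had a mean below 1. With the array mode as zero, the 3 lowest were left at 0.047, 0.055 and 0.12, hardly above it.

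Of the 10008 probes, 371 (3.71%) failed, and 355 regions had no failing probe. A single probe failed in 348 regions, 2 probes in 10 and 3 probes in 1. The ratio alone was too low at 240 failing probes, the bound signal alone was too dim at 66, and both held at 65. A ratio below 0 was found at 86 failing probes. Failing probes were more frequent at the first and last position of a region, where 8.75% of 1428 probes failed, than inside, where 2.87% of 8580 did. The rule itself allows only 1 failing probe in a region of 10 to 19 probes, so these counts are a description of the choice. In 115 regions every probe was above 1.

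The rule sits on a continuum of probe shares. The 35 members at exactly 90% had means from 0.76 to 2.60 with a median of 1.26, and the 78 regions at 88% to under 90%, just outside, had means from 0.69 to 2.21 with a median of 1.37. The 3 regions nearest to the threshold outside it were on chromosome 19 from 5683187 to 5685874 (26 of 29 probes, mean 1.42), chromosome 4 from 62279456 to 62280949 (17 of 19, 1.16) and chromosome 5 from 31375278 to 31376650 (17 of 19, 1.35). Of the 35 tied at 90%, the 3 with the lowest means were the regions of chromosomes 19, 12 and 6 at 0.76, 0.84 and 0.85 given above, each with 9 of 10 probes. The levels on either side overlapped.

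The enrichment was followed onto an array that had no part in the choice by applying the rule to the other 2. With array 1 left out, 384 regions met the rule, and their mean log2 ratio on array 1 was 1.90. With array 2 left out, 702 regions met it and had a mean of 1.66 on array 2, and with array 3 left out, 798 regions had a mean of 1.37 on array 3. Every one of these regions was above 0 on the array left out, and above 1 were 97.9%, 93.2% and 77.4%, compared with 10.7%, 8.22% and 5.47% of all eligible regions. The excess over the eligible regions was 1.72 ± 0.25 (SD, n = 3 arrays). An exact two-sided permutation of the signs of the 3 array differences gave p = 0.25, below which 3 arrays cannot go. The same p, raw and after adjustment, applied to all 13 differences tested this way, so none of them could pass 0.05.

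The 90% rule was met on the array left out less often than a region mean above 1. These bars are unlike. On 1 array the rule uses probe values not averaged over arrays and asks for bound signal above background on that array. The regions met the 90% rule on the array left out in 346 of 384 cases (90.1%) for array 1, 313 of 702 (44.6%) for array 2 and 248 of 798 (31.1%) for array 3. The corresponding shares of all eligible regions were 3.95%, 1.59% and 1.12%. On single arrays 947, 380 and 268 regions met the rule, and 207 met it on every array, all of them members. Of the 714 members, 308 met it on exactly 1 array alone, of which 288 on array 1, and 40 met it on no single array. Without array 1 the number of wholly enriched regions was 384, compared with 702 without array 2 and 798 without array 3. Of the 3 arrays the count thus depended most on array 1, and the reason was not tested. With the mode of each array's distribution as zero 122 regions met the rule. With normexp background correction in place of the processed signals 123 did, and in each case all were among the 714.

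Wholly enriched regions were of ordinary length. They ran from 382 to 3922 bp with a median of 1333 bp, against 1361 bp for the eligible regions, and held 8 to 40 probes with a median of 14. Together they covered 0.919 of 34.4 Mb of eligible tiling. With the rule on each array alone, the median length was below that of all eligible regions by 29.5 ± 2.6 bp (mean ± SD, n = 3 arrays). Long regions were rarely enriched throughout. The rule was met by 99 of 2161 regions under 1000 bp (4.58%), 590 of 18834 between 1000 and 1800 bp (3.13%) and 25 of 2971 over 1800 bp (0.841%). The decline also held in the brightest of 5 equal classes of input signal, at 12.4% under 1000 bp and 2.14% over 1800 bp. Part of the relation is built into the rule, since more probes must pass in a longer region, and with 8 or 9 probes none may fail. By number of probes the share was 3.17% at 8 to 9, 4.16% at 10 to 11, 3.30% at 12 to 14 and 1.05% at 20 or more.

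The longest wholly enriched region lay on chromosome 12 from 110829735 to 110833656, over 3922 bp. Its mean ratios were 1.85, 1.48 and 1.22 on arrays 1, 2 and 3, and 38 of its 40 probes passed. The centre at 1.60 and the edges at 1.44 were close, but its last 9 probes were low, from 0.33 to 1.04. On chromosome 2 the region from 164480248 to 164483282 (3035 bp) had 1.55, 1.47 and 1.31, with 27 of 30 probes passing. These were the only 2 members among 399 eligible regions over 3000 bp. The region on chromosome 17 from 35041754 to 35044521 (2768 bp) had 1.92, 1.69 and 1.64 with all 31 probes passing, and that on chromosome 5 from 125505462 to 125508130 (2669 bp) had 2.09, 2.16 and 1.98 with all 30. The latter was uneven, with an SD over probes of 0.94 and sides that differed by 1.12. The region on chromosome 10 from 126758083 to 126760935 (2853 bp) was as uneven, with an SD over probes of 0.94. It rose from 1.20 at its edges to 3.19 at its centre, and 23 of its 25 probes passed.

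Enrichment of the whole length did not mean a level profile. The SD over the probes of a region had a median of 0.57 (range 0.15 to 1.37), compared with 0.87 over all eligible regions, and the lowest and highest probe of a region differed by a median of 1.94, compared with 2.92. Part of this is built into the rule, which sets a lower limit for nearly every probe mean. The lowest probe of a region had a median of 0.58 in the members and -1.66 over all eligible regions. These 2 comparisons are therefore a description. The noise between arrays at a single probe was also smaller in the members, with a median SD of 0.335 against 0.579. In the average of 3 arrays that noise would give an SD over probes of 0.193. The SD over probes was at or below the level expected from a region's own noise in 9 of the 714 members. The same held in 156 of all 23966 eligible regions. The share was thus larger in the members, but rests on 9 regions. The SD over probes was under 1.5 times that level in 51 members (7.14%), a share close to the 6.87% of all eligible regions. The same ups and downs came back on each array, since the deviations of the 10008 probes from their region mean correlated between arrays with r of 0.71 to 0.75. Adjacent probes deviated together with r of 0.61, against 0.41 over eligible regions. In the 3633 regions with a middle share of passing probes, r was 0.73 to 0.76 between arrays and 0.62 between adjacent probes. Neither trait was thus particular to the members. These correlations are across probes, which share regions and overlapping DNA fragments.

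The same spread was measured on the array left out. There the median SD over probes of the regions chosen on the other 2 arrays was 0.60, 0.69 and 0.68, while all eligible regions had 1.04, 1.03 and 0.95. The difference was -0.35 ± 0.08 (SD, n = 3). Each array showed the narrower spread in the chosen regions. The rule's lower limit on the other 2 arrays bears on this spread, since probe deviations repeat between arrays. An SD on a single array also holds the noise at single probes, which was smaller in the members. The part of either was not tested. The left and right sides of a member differed by a median of 0.44, and this difference stayed within 0.5 in 394 members and passed 1 in 107.

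The flattest member lay on chromosome 9 from 43118361 to 43118969 (609 bp, 8 probes), with an SD over probes of 0.15. Its ratios were 1.43, 1.39 and 0.85 on the 3 arrays, so the arrays differed more than the probes did. The region on chromosome 11 from 117990369 to 117991709 had 17 probes over 1341 bp, an SD over probes of 0.19 and ratios of 1.22, 1.10 and 0.62. There single arrays swung widely around the level mean, with a noise SD of 0.46. Of the remaining 3 flattest, that on chromosome 1 from 135289635 to 135290827 had a mean of 1.30, that on chromosome 11 from 88536165 to 88536953 had 1.27 and that on chromosome 17 from 28501905 to 28503337 had 1.37. All 5 had means under 1.40, below the members' median.

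At the other extreme, the region on chromosome 19 from 56900366 to 56900947 (582 bp) had an SD over probes of 1.37, with probes from 0.54 to 3.76. Its ratios were 2.29, 2.08 and 1.98, and on all arrays the profile climbed from one end to the other, with left and right sides that differed by 2.23. Slopes of this kind were also present on chromosome 4 from 40992344 to 40993693, where the sides differed by 2.36, and from 149076175 to 149077270, where they differed by 2.16. On chromosome 6 from 49345006 to 49345780 the sides differed by 1.64. A peak was seen instead on chromosome 5 from 113592223 to 113593527, with a centre of 3.09, edges of 0.46 and ratios of 1.72, 1.74 and 1.62 over the whole region. All probes passed in the chromosome 19 region, and 1 probe failed in each of the other 4.

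**Figure D2:**
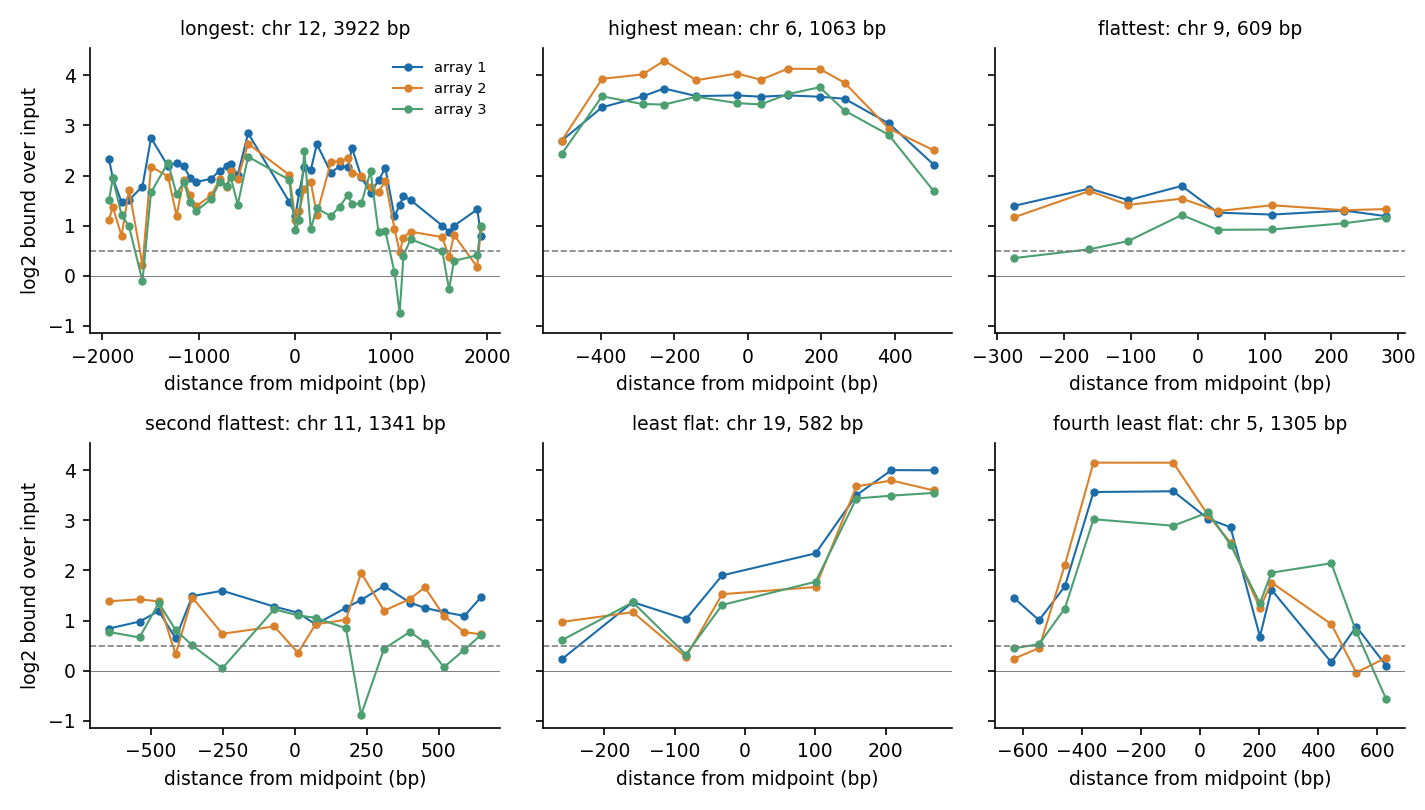
Log2 ratio of bound over input at each probe on each array against the distance from the region's midpoint in bp, for 6 wholly enriched regions. The dashed line marks the threshold of 0.5. The region with the highest mean forms a plateau, the 2 flattest have means over arrays between 0.59 and 1.51 while single arrays stray further, down to -0.88, and the 2 least level ones shown climb from one end to the other or form a peak.

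Averaged over all members, the profile was a shallow plateau. The mean log2 ratio was 1.69 within 100 bp of the midpoint and 1.70 at 200 to 300 bp. Further out it was 1.63 between 500 and 600 bp and 1.52 between 600 and 700 bp. Array SDs of these means ran from 0.17 to 0.20, and each array was lower at 600 to 700 bp than within 100 bp of the midpoint. The regions with under 50% of probes passing had the opposite shape, from -0.47 within 100 bp of the midpoint to -0.16 at 600 to 700 bp. Those with 50% to under 90% lay between, at 0.85 and 0.85.

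In the 569 members with at least 2 probes within 200 bp of the midpoint and at least 2 more than 500 bp from it, the central probes averaged 1.67 ± 0.19 and the outer ones 1.55 ± 0.17 (SD, n = 3). The centre minus the edges was 0.11, 0.15 and 0.09 on arrays 1, 2 and 3, a mean of 0.12 ± 0.03, and with array 1 left out of rule and mean it was 0.21. Over all 20469 eligible regions so measured it was -0.24 ± 0.05. The centre was called higher than the edges in 138 members and lower in 96, where 17.1% and 32.8% of the eligible regions were called (limma, adjusted p under 0.05). The rule used these probes, so the counts are a description. On the array left out, the regions chosen on the other 2 had a centre minus edges of 0.17 on array 1, 0.16 on array 2 and 0.08 on array 3, and the excess over the eligible regions was 0.38 ± 0.10 (SD, n = 3). All 3 arrays thus had a high centre in the chosen regions and a low centre in the eligible ones, with p = 0.25 in the exact sign-flip permutation test. Individual members went both ways, since the centre was the higher in 302 of 569 and the difference was within 0.5 in 281.

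**Figure D3:**
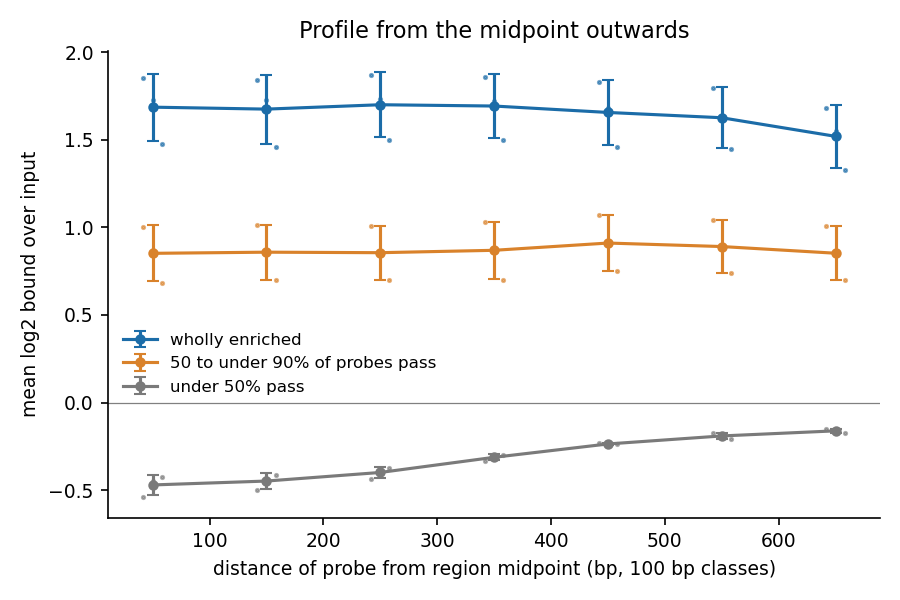
Mean log2 ratio of bound over input against the distance of the probe from the region's midpoint in classes of 100 bp, for the 3 classes of eligible regions. Large points are means over the 3 arrays with SDs as bars, and small points are single arrays. The wholly enriched regions stay between 1.52 and 1.70, while those with under 50% of probes passing rise from -0.47 to -0.16.

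Input signal moved with membership. The median log2 input signal was 10.1 in the members and 9.24 in all eligible regions. The share of regions that were wholly enriched was 0.042% in the dimmest of the 5 input classes, 1.61% in the middle one and 9.37% in the brightest. Part of this is built into the rule, which asks for bound signal well above background. At a given ratio a dimmer input means a dimmer bound signal. The share of regions with a mean of at least 1, which does not use that flag, was 1.21% in the dimmest class and 19.7% in the brightest. The mean log2 ratio did not rise steadily, at -0.07, -0.16, -0.15, -0.11 and 0.11 from the dimmest to the brightest class. Members also carried shorter probes. With the rule on each array alone the mean probe length was 50.0, 49.1 and 48.7 nt, against 52.3 nt for all eligible regions, a difference of -3.11 ± 0.67 nt (SD, n = 3). Probe spacing differed by -1.26 ± 0.35 bp from a mean of 98.2 bp. The part of input brightness and probe length in which regions met the rule was not tested beyond the shares within input classes given here.

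All 19 autosomes held wholly enriched regions, in unequal shares. Chromosome 4 had the highest share, 68 of 1608 eligible regions (4.23%), followed by chromosome 11 with 76 of 1965 (3.87%), chromosome 15 with 36 of 937 (3.84%) and chromosome 17 with 42 of 1132 (3.71%). Chromosome 13 had the lowest, 16 of 906 (1.77%), followed by chromosome 1 with 28 of 1433 (1.95%) and chromosome 3 with 24 of 1199 (2.00%). Per length of chromosome, chromosome 11 held 6.40 members per 10 Mb of its tiled span and chromosome 13 held 1.37. With the rule on each array alone, chromosome 4 had shares of 5.47%, 2.42% and 1.68% and ranked 1st, 1st and 2nd. Chromosome 13 had 2.21%, 1.10% and 0.662% and ranked 19th, 18th and 16th. With array 1 left out, the shares on these chromosomes were 2.36% and 0.883%.

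The order between these extremes was less stable. Chromosome 15 ranked 2nd, 8th and 11th on the single arrays, and chromosome 17 ranked 5th, 2nd and 1st. Median log2 input was 9.32 on chromosome 4 and 8.98 on chromosome 13. Among the regions of the brightest input class, 49 of 363 (13.5%) on chromosome 4 and 10 of 116 (8.62%) on chromosome 13 were wholly enriched.

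**Figure D4:**
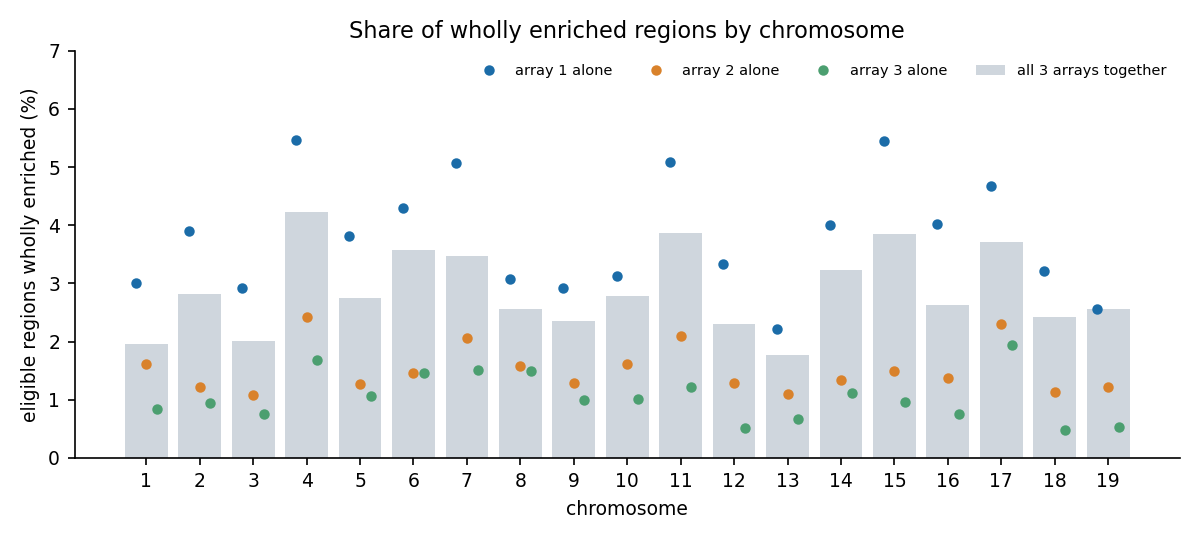
Share of each autosome's eligible regions that were wholly enriched, in percent. Bars use the mean of all 3 arrays and points apply the rule to 1 array alone. Chromosome 4 is highest at 4.23% and chromosome 13 lowest at 1.77%, and array 1 gives the most regions on every chromosome.

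Wholly enriched regions lay more toward the far end of the chromosome, counted from the lowest coordinate. Each chromosome's tiled span was cut into 10 equal parts. The last part held 135 of its 2977 eligible regions as members (4.53%) and the one before it 115 of 3035 (3.79%), compared with 34 of 1821 (1.87%) in the first part. On the single arrays the last part had 6.08%, 2.38% and 1.51% and the first 2.69%, 0.824% and 0.824%. The last part was thus above the first on each array. The mean relative position differed from that of all eligible regions by 5.26 ± 0.77 percentage points (58.9% against 53.6%, SD, n = 3 arrays). With the rule on the mean of all arrays, the 714 members had a mean relative position of 59.3%. The 3633 regions with a middle share of passing probes had 58.2%, and the 19619 with the lowest share had 52.6%. The shift was thus largely shared by regions enriched over only part of their probes. Median log2 input was 9.42 in the last part and 9.16 in the first. Among regions of the brightest input class, 10.9% in the last part and 6.97% in the first were wholly enriched, and in the next brightest class 5.34% and 2.36%.

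Members also lay where tiled regions are dense. The regions that met the rule on single arrays had 6.53 ± 0.28 other tiled regions within 100 kb, 1.18 ± 0.28 more than the 5.35 of all eligible regions (SD, n = 3). The share of wholly enriched regions was 2.13% with 0 to 2 tiled regions within 100 kb, 3.67% with 6 to 9, 4.05% with 10 to 14 and 3.78% with 15 or more. Input signal rose along the same classes, from a median log2 of 9.06 to 9.72. In the brightest input class, the share was 8.43% with 0 to 2 tiled regions within 100 kb and 8.96% with 10 or more, and in the next brightest class 3.03% and 3.58%. Within both input classes the dense and the sparse regions thus differed by less than over all eligible regions.

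Most wholly enriched regions had no other member within 100 kb. The nearest other member was at a median distance of 338 kb between midpoints, with quartiles of 67.1 and 1012 kb, and the closest pair was 2444.5 bp apart. Another member lay within 10 kb of 56 (7.84%), within 100 kb of 215 (30.1%) and within 1000 kb of 534 (74.8%). With the array mode as zero, which left 122 regions, 4.92% had another within 100 kb, and with normexp 6.50%. Any eligible region lay within 10 kb of 39.8% of the members and of 30.4% of the eligible regions, so members had more regions near them to begin with. Within 100 kb these shares were 95.9% and 90.5%. How many of all eligible regions had a member within these distances was not counted, so the distances only describe the members' spacing.

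The next eligible region along the chromosome was more often a member beside a member. At gaps under 2 kb, 12 of 83 neighbours of members (14.5%) were members, compared with 3.94% of neighbours of all eligible regions. At 2 to 10 kb it was 44 of 292 (15.1%) against 3.80%, and at 10 to 50 kb 38 of 631 (6.02%) against 3.22%. At 50 to 200 kb it was 22 of 341 (6.45%) against 2.52%, no lower than in the class before. Beyond 200 kb it was 0 of 81, which allows a share of up to 3.70%, against 1.64%. Pairs in which both are members are counted from each side.

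The level of the neighbours was compared over those that were not members themselves. The 71 such neighbours within 2 kb of a member had mean log2 ratios of 0.41, 0.27 and 0.18 on arrays 1, 2 and 3, and those of other eligible regions had -0.10, -0.10 and -0.13. The difference was 0.39 ± 0.10 (SD, n = 3). It was 0.33 ± 0.06 at 2 to 10 kb, 0.26 ± 0.07 at 10 to 50 kb, 0.13 ± 0.05 at 50 to 200 kb and 0.12 ± 0.04 beyond. Neighbours of members were higher on all 3 arrays in each of these classes, with p = 0.25 in the exact sign-flip permutation test. With neighbours that are members included, whose levels the rule used, the differences were 0.52 under 2 kb and 0.51 at 2 to 10 kb. Neighbours of members were also brighter in input, with a median log2 of 9.71 against 9.40 under 2 kb, and its part in the difference was not tested.

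**Figure D5:**
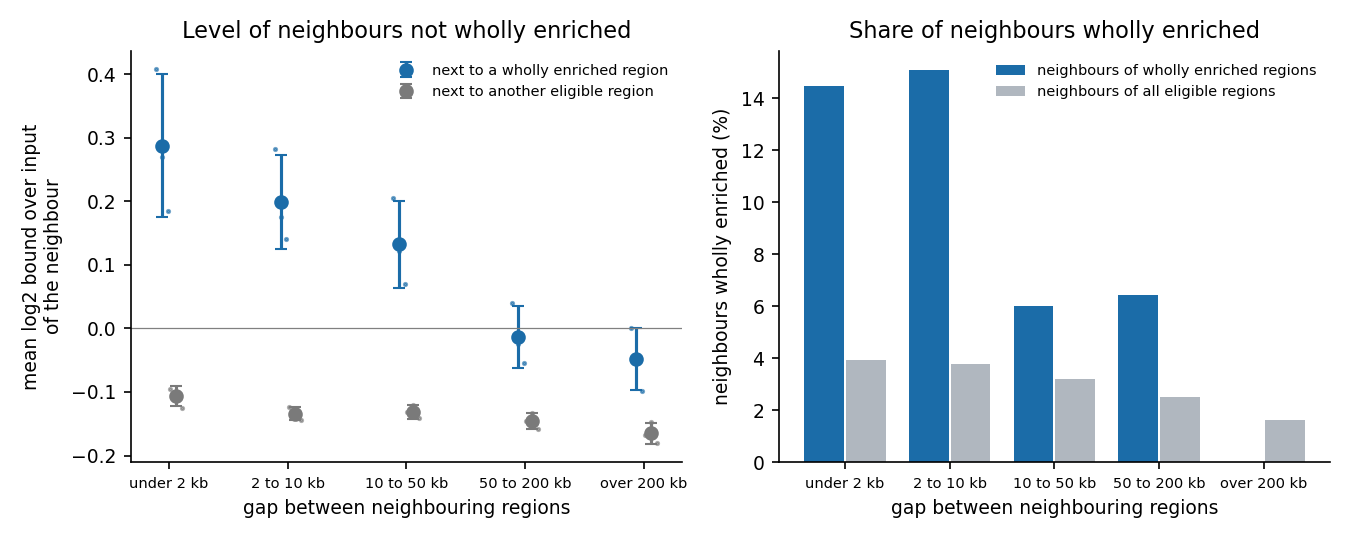
Left, mean log2 ratio of the adjacent eligible region by gap, where that region is not wholly enriched itself, beside a wholly enriched region (blue) and beside any other eligible region (grey), as means over 3 arrays with SDs and single arrays as small points. Right, the percentage of adjacent regions that are wholly enriched. The difference in level falls from 0.39 under 2 kb to 0.12 beyond 200 kb.

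A few places held several members. Grouped within spans of at most 100 kb, there were 77 pairs, 11 groups of 3, 4 groups of 4 and 1 group of 5. The group of 5 lay on chromosome 7 from 25456890 to 25546526, where 5 of 6 eligible regions within 89.6 kb were wholly enriched. Their means were 2.16, 2.03, 1.62, 1.45 and 1.47 in order along the chromosome, and the sixth region had 1.05. The profiles within it differed, since the second region, from 25472680 to 25473953, peaked at its centre (3.04 against 0.99 at its edges), while the last, from 25545108 to 25546526, dipped there (0.67 against 1.90). The group therefore shared enrichment and not a profile.

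The tightest group of 4 was also on chromosome 7, from 31847394 to 31897403 (50.0 kb), with means of 1.77, 1.49, 2.45 and 1.87, and the only other eligible region there had 1.22. Its highest region, from 31887340 to 31888693, had 2.66, 2.43 and 2.26 on the 3 arrays with all 16 probes passing. On chromosome 15 from 82853403 to 82930926 (77.5 kb), 4 of 5 eligible regions were members, with means of 1.50, 1.33, 1.03 and 1.23, and the remaining one had 0.56. This group was weaker than the pair of groups on chromosome 7, and its 4 means were all below the members' median of 1.59. In each of the 3 groups the eligible region that was not a member was still above the array median.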

How the data were processed

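The deposited data are scanner intensities, with 420288 spots on each array including 4474 controls. Per the file headers, Agilent Feature Extraction 10.7.3.1 subtracted background, detrended spatially and normalised dyes with 1 linear factor per channel, on a custom design placed on mm9. Bound over input processed intensity was expressed as a log2 ratio per spot, outlier spots (123 to 259 per array) were left out, spots of a probe were averaged (409597 placed probes) and each array was centred on its median. The authors also deposited a matrix of log2 ratios with medians near -0.97. Its values tracked bound over input spot medians (r of 0.999 or more) and served as an alternative, and the sources used here do not state their normalisation. Per the file headers, flags for signal above background, saturation and outliers are 0 or 1.

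Region means were fitted with limma 3.58.1 (R 4.3.3), 1 group against 0, Benjamini-Hochberg adjusted over 28880 regions. The fit was tested on simulated data with known changes. Differences between classes were taken per array and tested by an exact two-sided permutation of their signs. Normexp used spot medians and local background medians in place of mean signals, which the files do not give. Named regions are the 5 longest, highest, lowest, flattest and least flat members, the 3 nearest on each side of the probe share (ties by the mean nearest 0.5) and the 3 densest groups. The members and lists were chosen with earlier results of these data known, and the shares within input classes after seeing these values.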

Additional observations from a re-analysis of the deposited data

How the results depend on the processing

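The number of wholly enriched regions depended on the thresholds, on the zero point and on the background correction. It was 1297 with at least 80% of probes passing, 355 with all probes, 1083 above 0.25 and 223 above 1 on the log2 scale, 341 with bound signal above background on every array, 122 with the array mode as zero, 253 with the median of probes above background in both channels as zero, and 123 with normexp. All of the 122 and the 123 were among the 714. It stayed within 1.5 times of 714 for other gaps and probe minimums, with outlier spots kept, with loess (476, of which 379 among the 714) and with the series matrix (872, of which 593). With 1 array left out it ran from 384 to 798. Median length was 1321 bp with the mode, 1314 with normexp, 1323 with loess and 1337 with the matrix, and 1330 to 1334 with 1 array left out. The mean ratio was 1.44 with normexp and 1.43 with loess, and the SD over probes 0.706 with the matrix and 0.573 to 0.601 with 1 array left out. Centre minus edges was 0.25 with the mode, 0.30 with normexp and 0.093 to 0.209 with 1 array left out. The share with another member within 100 kb was 4.92% with the mode, 6.50% with normexp and 19.7% with loess. Chromosome 4 had 0.684% and chromosome 13 0.442% with the mode, 0.746% and 0.442% with normexp, and chromosome 13 had 0.883% to 1.99% with 1 array left out. With the mode as zero 2501 tiled regions were called higher and 22197 lower (limma). The mode lay 0.71, 0.81 and 0.63 above the median, which by itself raises the threshold, and fewer regions leave fewer close pairs. The other causes were not tested. The 41 named regions kept their sign in all 287 recomputed values, of which 142 moved by more than 1 SD, and the weakest fell to 0.047 with the mode as zero. These regions were chosen on these data, and all had means of at least 0.76. Their kept sign was thus largely fixed by the choice and is a description. No paired analysis was possible because there is 1 group of arrays.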

Other observations

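Outside the limits of the rule, 22 of 1000 regions with at least 8 probes on the X chromosome (2.20%) had 90% of their probes passing, with a mean log2 ratio of 2.00 ± 0.18 (SD, n = 3). On chromosomes 1 to 19, 418 of 3709 regions with 3 to 7 probes (11.3%) had this share, with a mean of 1.68 ± 0.20 (SD, n = 3). Their median length was 320 bp, and the same share of passing probes asks less of so few probes. Median log2 input was 8.31 on the X chromosome and 9.19 in the short regions.

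Of the 51 eligible regions with a mean log2 input signal over 12, 9 were wholly enriched. The background was 714 of all 23966 eligible regions (2.98%) and 449 of 4793 in the brightest input class (9.37%). The fifth densest span held 4 members among 12 eligible regions on chromosome 11 from 115649209 to 115749134, and the other 8 regions there ran from -0.67 to 1.27. It was the only one of the 5 densest spans with a non-member below the array median, and was chosen after its values were seen.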
